A study of Homo sapiens with 4 samples.

Results

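A group of 9 genes reported elsewhere as miR-28-5p targets, MAD2L1, BAG1, RAP1B, OTUB1, N4BP1, E2F6, CCND1, TEX261 and NFE2L2, was followed in the miR-28-5p pull out from DU-145 cells. They are 9 of the 24688 named genes, and the files list them as 23 of 53209 RefSeq transcript records. The genes were taken by symbol. In the biotin-tagged pull out, E2F6 was 15.2-fold, TEX261 8.52-fold and N4BP1 2.21-fold above the untagged pull out by the ratio of mean levels. MAD2L1 was at 0.371 times the untagged level, and the other 5 genes overlapped between the arms. Over all 11309 genes compared, both tagged values lay above both untagged values in 12.3% and below them in 12.7%. At an adjusted p of 0.05 none of the 9 genes was called in the unpaired comparison. TEX261 alone passed when the replicate number was used as a block over gene sums, where 0.371% of all genes were called higher. It did not pass in the blocked fit over transcripts.

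A miRNA guides the Argonaute protein to messenger RNAs, mainly by pairing of its seed, nucleotides 2 to 8, with a matching stretch of the 3′UTR, and the paired RNA is then translated less or degraded. MIR28 lies in an intron of LPP and gives rise to miR-28-5p and, from the opposite arm of the same hairpin, miR-28-3p. The hairpin is known to derive from an L2 element, an old repeat with copies throughout the genome. The published targets act in the cell cycle (MAD2L1, CCND1, E2F6), in survival and signalling (BAG1, RAP1B), in ubiquitin metabolism (OTUB1, N4BP1), in export of proteins from the endoplasmic reticulum (TEX261) and in the response to oxidative stress (NFE2L2).

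DU-145 is an established line from a human prostate carcinoma. It was grown as an adherent culture, and each arm received 60 nM of a miR-28-5p duplex with Lipofectamine. In the miR-28CT samples (2 libraries) the duplex was untagged. The miR-28BIO samples (2 libraries) came from cells given duplexes with biotin at the 3′ end, mixed from a form with thiouridine at nucleotide 8 and a form with thiouridine at nucleotide 18. All cells were exposed after 24 h to ultraviolet light (365 nm, 2 J/cm2), which crosslinks thiouridine to RNA next to it, and 15 µg of total RNA per sample was held on streptavidin beads for 4 h. The miR-28CT samples thus carry additional miR-28-5p as well and measure RNA that stays on the beads without a tag. Thiouridine is described for the tagged duplexes only, so the arms differ in it as well as in biotin. A gene that is lower in cells given the tagged duplex and a gene that is recovered less well cannot be told apart in these libraries. No untransfected cells were among the samples.

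The stretches of the member transcripts that match the miR-28-5p seed are given here because the comparison between genes below returns to them. The canonical GENCODE 44 transcript of each gene was searched for AGCTCCT, the match to nucleotides 2 to 8. A 3′UTR match was found in 8 of the 9 genes, while 14.1% of 19205 coding genes have one. The lines give 14 bases before the match and 7 after it in hg38, 5′ to 3′ on the strand of the gene, with the match in capitals.
E2F6, chr2:11445378-11445405, minus strand, exon 7 of 7: accattagactgtgAGCTCCTtgaggga
TEX261, chr2:70986029-70986056, minus strand, exon 6 of 6: cccagtagactgtaAGCTCCTtgagggc
N4BP1 distal, chr16:48538816-48538843, minus strand, exon 7 of 7: ctttctagactgtgAGCTCCTcgtgggc
N4BP1 proximal, chr16:48540258-48540285, minus strand, exon 7 of 7: ccccgccctcccccAGCTCCTacctgcc
OTUB1, chr11:63998354-63998381, plus strand, exon 7 of 7: gcccccaggctgtgAGCTCCTtgggggc
NFE2L2, chr2:177230717-177230744, minus strand, exon 5 of 5: actattatactaaaAGCTCCTactgtga
MAD2L1, chr4:120059634-120059661, minus strand, exon 5 of 5: aaatattgctgtatAGCTCCTtttgacc
RAP1B, chr12:68659645-68659672, plus strand, exon 8 of 8: aagaaagtccaaagAGCTCCTatataga
BAG1 proximal, chr9:33255030-33255057, minus strand, exon 7 of 7: gtgattttgagtaaAGCTCCTatctgtt
BAG1 middle, chr9:33253952-33253979, minus strand, exon 7 of 7: gagtcaggtgcagtAGCTCCTtcctgta
BAG1 distal, chr9:33252879-33252906, minus strand, exon 7 of 7: acctctgcttgaacAGCTCCTcaccttc
CCND1, coding sequence, chr11:69641310-69641337, plus strand, exon 1 of 5: agccatggaacaccAGCTCCTgtgctgc

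CCND1 had no match in its 3′UTR of 3192 bases and a single one in its coding sequence, where 19.3% of 19675 genes hold a match. The share of genes that hold a 3′UTR match rises with length. Among genes in the same decile of 3′UTR length it was 41.0% for MAD2L1, RAP1B and N4BP1, 26.2% for CCND1, 19.5% for BAG1, E2F6 and TEX261, 9.81% for OTUB1 and 6.41% for NFE2L2. These lengths are of the GENCODE transcripts, which have 5227 bases for MAD2L1 and 13378 for RAP1B. The deposited records are far shorter there, with 1436 bases for MAD2L1 and 2002 to 2152 for RAP1B. The matches of TEX261 and OTUB1 and the distal match of N4BP1 lie 94, 38 and 97 bases from the end of the transcript. That of E2F6 lies 1010 bases from it. The sites carried by the genes lie within the span of all of their deposited records.

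Mature miR-28-3p is shown because it carries the same letters, in capitals, inside its own sequence. It lies on the plus strand at chr3:188688834-188688855 of GRCh38.p14 (RefSeq).
hsa-miR-28-3p: cacuagauugugAGCUCCUgga

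In the 9 bases before the match, counted position by position, the E2F6 site and the distal N4BP1 site share 8 bases with miR-28-3p, the TEX261 site 7 and the OTUB1 site 6. NFE2L2 shares 4, MAD2L1 and the coding site of CCND1 3, RAP1B 1, the BAG1 sites between 1 and 2, and the proximal site of N4BP1 0. E2F6 and N4BP1 have the run tagactgtgAGCTCCT of 16 bases in common, and the windows of E2F6 and TEX261 are identical at 24 of 28 positions. Among all 3330 matches in 3′UTRs, 34 (1.02%) share at least 7 of the 9 bases and 83 (2.49%) at least 6. The count measures likeness to miR-28-3p, which comes from the opposite arm of the hairpin. Pairing of the same bases with the transfected miRNA itself was not counted.

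The level of each gene is the sum of the FPKM of its records, a Cufflinks estimate that counts fragments per length of transcript and per mapped read. Reads behind these values, from the deposited coverage and a read length of 50 bases, were 13.0 to 17.9 M per library, of which 5.46 to 7.43 M fell in listed transcripts. All 23 records had status OK in all 4 libraries, and all 9 genes passed the filter of a mean scaled FPKM of 0.5 by their miR-28CT level alone. Same-numbered libraries of the arms resembled each other more (r = 0.832 and 0.772 over log2 gene sums, a description across genes) than libraries of one arm (0.634 and 0.602). Values within replicate pairs are therefore given beside the means. Of the 45 FPKM above 0 in member records, 9 lay outside the interval that Cufflinks printed for them, in MAD2L1, TEX261, CCND1 and N4BP1.

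**Figure D1:**
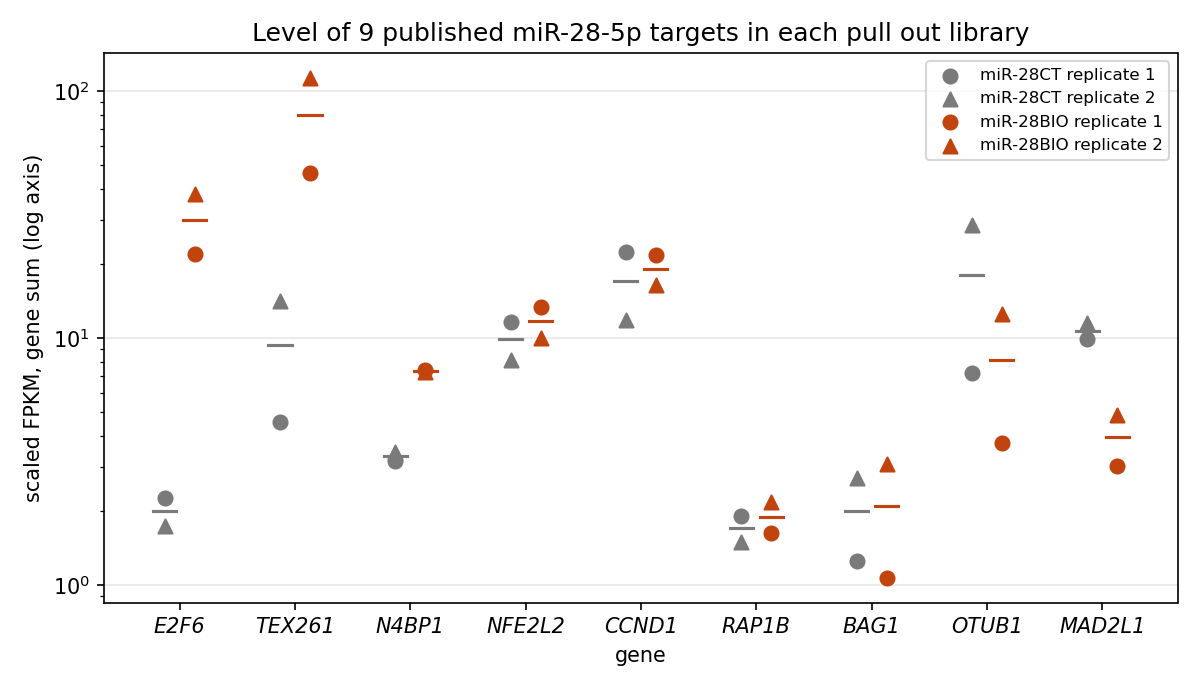
Scaled FPKM (log axis) of the 9 genes in the 2 miR-28CT libraries (grey) and the 2 miR-28BIO libraries (red), with circles for replicate 1, triangles for replicate 2 and a bar at each mean. The arms are apart in E2F6, TEX261 and N4BP1, where miR-28BIO is higher, and in MAD2L1, where it is lower.

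The first question was whether each published target was recovered above background with the tagged miRNA. Over the whole table, 11309 genes were compared with limma on log2(scaled FPKM + 0.1), a scale that understates the change of low genes. With Benjamini-Hochberg adjustment 0 genes were higher in the miR-28BIO samples (0%) and 3 were lower (0.0265%), and 0 of the 9 published targets were called. At an unadjusted p under 0.05, 3 of the 9 were higher (E2F6, TEX261, N4BP1) and 1 was lower (MAD2L1), against 2.21% and 0.805% of all genes. Both miR-28BIO values lay above both miR-28CT values in 3 of the 9 genes, against 12.3% of all genes, and below them in 1, against 12.7%. With a library left out, arms lie apart more often over all genes too. Arms were apart upwards in 6 of the 9 without miR-28CT replicate 1 (33.2% of all genes), 3 without miR-28CT replicate 2 (27.6%), 5 without miR-28BIO replicate 1 (25.6%) and 4 without miR-28BIO replicate 2 (30.9%). Taken within replicate pairs, 4 of the 9 were higher in each pair and 2 were lower in each, while 30.3% and 39.7% of all genes were. The median log2 fold change of the 9 genes was 0.22, and that of all genes was -0.08 (0.39 and 0.08 with FPKM as deposited, without scaling). The median of the 9 was -0.04 in pair 1 and 0.47 in pair 2. It was 0.53 without miR-28CT replicate 1, 0.016 without miR-28CT replicate 2, 0.35 without miR-28BIO replicate 1 and 0.43 without miR-28BIO replicate 2, and no direction is read from it. When the block was included, limma called 42 genes higher (0.371%) and 22 lower (0.195%), and TEX261 was the member among them. For a single gene, an exact permutation test of 2 samples against 2 cannot give a two-sided p below 0.333.

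E2F6 is a transcriptional repressor of the E2F family that acts with Polycomb proteins and lies on chromosome 2 from 11444375 to 11466161. For replicates 1 and 2, its summed FPKM was 2.39 and 1.48 without the tag (miR-28CT) and 23.1 and 41.8 with it (miR-28BIO). The values of all genes below are in this order. Both tagged samples were far above both untagged samples. About 128 and 58.6 reads lay behind the lower values and 1250 and 1918 behind the higher ones. The scaled level was 1.99 ± 0.359 (SD, n = 2) untagged and 30.2 ± 11.7 (SD, n = 2) tagged. This is a difference of 3.81 on the log2 scale, with a standard error of 0.50 and an adjusted p of 0.444 (limma), and it came to 3.23 and 4.39 in the replicate pairs. With the block its adjusted p was 0.0566 (limma), just short of the threshold. By fold change E2F6 was number 92 of 11309 genes.

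TEX261, a membrane protein of the early secretory pathway (chromosome 2, 70985942 to 70994873), has a single record. It had 4.87 and 12.1 FPKM in the miR-28CT and 49.4 and 122.9 FPKM in the miR-28BIO samples. The arms did not overlap, although replicate 2 was well above replicate 1 in each arm. The scaled level was 9.37 ± 6.79 (SD, n = 2) against 79.9 ± 46.8 (SD, n = 2). On the log2 scale the difference was 3.16, with a standard error of 0.84 and an adjusted p of 1.00 (limma). Within the replicate pairs the change was 3.33 and 2.99, and with each library left out in turn it ran from 2.38 to 3.99. Of its 4 FPKM, 3 lay outside their own Cufflinks interval. The interval midpoints, a setting chosen after seeing the data, were scaled by their own factors. They were 4.86 and 8.22 in miR-28CT and 49.7 and 73.7 in miR-28BIO samples, and the arms stayed apart. With the block the adjusted p was 0.0450 over gene sums (limma). In the blocked fit over transcripts, where its single record has the same values, the adjusted p was 0.347 (limma), and the call was lost. TEX261 and the E2F6 record NR_103490 stand in the study's targetome, which was selected on these libraries, so their direction here is not independent of that list.

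N4BP1, an RNA-binding protein and partner of the NEDD4 ubiquitin ligase (chromosome 16, 48538726 to 48610180), showed a smaller difference with little spread. Its values were 3.39 and 2.95 FPKM in the miR-28CT and 7.83 and 7.89 FPKM in the miR-28BIO samples, so that the arms were apart. The log2 fold change was 1.12 with a standard error of 0.38 and an adjusted p of 1.00 (limma), with 1.19 and 1.04 within the pairs and 1.09 to 1.20 with each library left out in turn.

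OTUB1 is a deubiquitinase (chromosome 11, 63986438 to 63998412) and the member with the largest spread among the miR-28CT samples. It had 7.65 and 24.4 FPKM there and 3.98 and 13.6 FPKM in the miR-28BIO samples. The arms overlapped, since miR-28BIO replicate 2 lay above miR-28CT replicate 1, but the tagged sample was the lower one within each pair. The log2 fold changes were -0.91 and -1.19 within the pairs and -1.05 over all libraries, with a standard error of 1.00 and an adjusted p of 1.00 (limma). With each library left out in turn the value ran from -2.01 to -0.04.

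MAD2L1, the spindle checkpoint protein that holds back anaphase until chromosomes are attached (chromosome 4, 120055623 to 120066848), was the member with both tagged samples below both untagged ones. It had 10.5 and 9.82 FPKM in the miR-28CT and 3.21 and 5.32 FPKM in the miR-28BIO samples. The scaled level was 10.7 ± 1.19 (SD, n = 2) against 3.97 ± 1.31 (SD, n = 2). The log2 difference was -1.44, with a standard error of 0.46 and an adjusted p of 1.00 (limma). It was -1.67 and -1.22 within the pairs and between -1.77 and -1.10 with each library left out. Of its 4 FPKM, 3 lay outside their own Cufflinks interval. With the interval midpoints, a setting chosen after seeing the data, scaled by factors taken from the midpoints themselves, the values were 6.45 and 15.3 in miR-28CT and 2.21 and 5.32 in miR-28BIO samples. The arms stayed apart, also with the factors of the FPKM.

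CCND1 encodes cyclin D1, which drives entry into the cell cycle with CDK4 and CDK6 (chromosome 11, 69641156 to 69654474). Its values, 23.7 and 10.0 FPKM in the miR-28CT and 23.0 and 17.8 FPKM in the miR-28BIO samples, overlapped. The log2 difference was 0.22, with a standard error of 0.55 and an adjusted p of 1.00 (limma), and the pairs gave -0.04 and 0.47. The sign of the mean rested on miR-28CT replicate 2, without which the log2 fold change was -0.22. Of its 4 FPKM, 2 lay outside their own Cufflinks interval. The interval midpoints gave 25.5 and 21.2 in miR-28CT and 24.9 and 22.5 in miR-28BIO samples, with overlap and a log2 difference of 0.025. With the factors of the FPKM in their place they were 23.15 and 25.8 against 21.8 and 23.14, with both tagged samples lower.

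NFE2L2 encodes NRF2, the transcription factor of the oxidative stress response (chromosome 2, 177230303 to 177264727). It had 12.4 and 6.93 FPKM in the miR-28CT and 14.1 and 10.9 FPKM in the miR-28BIO samples. The arms overlapped, and the differences within pairs, 0.20 and 0.29, were small beside the gap between replicates of one arm. Over all libraries the log2 difference was 0.24, with a standard error of 0.46 and an adjusted p of 1.00 (limma), and it ran from 0.016 to 0.53 with each library left out in turn.

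RAP1B, a small GTPase of cell adhesion (chromosome 12, 68610899 to 68671901), and BAG1, a co-chaperone of HSP70 that protects from apoptosis (chromosome 9, 33252471 to 33264708), were the lowest members. RAP1B had 2.03 and 1.26 FPKM in the miR-28CT and 1.71 and 2.35 FPKM in the miR-28BIO samples, resting on about 35.1 to 75.5 reads per library. BAG1 had 1.33 and 2.31 FPKM in the miR-28CT and 1.13 and 3.36 FPKM in the miR-28BIO samples, with about 76.1 to 191 reads. Arms overlapped in each gene and the pairs had opposite signs. The log2 fold changes were 0.14 for RAP1B and -0.02 for BAG1 (limma, standard errors 0.45 and 0.75, adjusted p = 1.00 for each). A change of about the size of these standard errors was not detectable with 2 libraries per arm, and much larger changes went uncalled too. In the same fit E2F6, at 3.81 with a standard error of 0.50, had an adjusted p of 0.444 (limma).

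**Figure D2:**
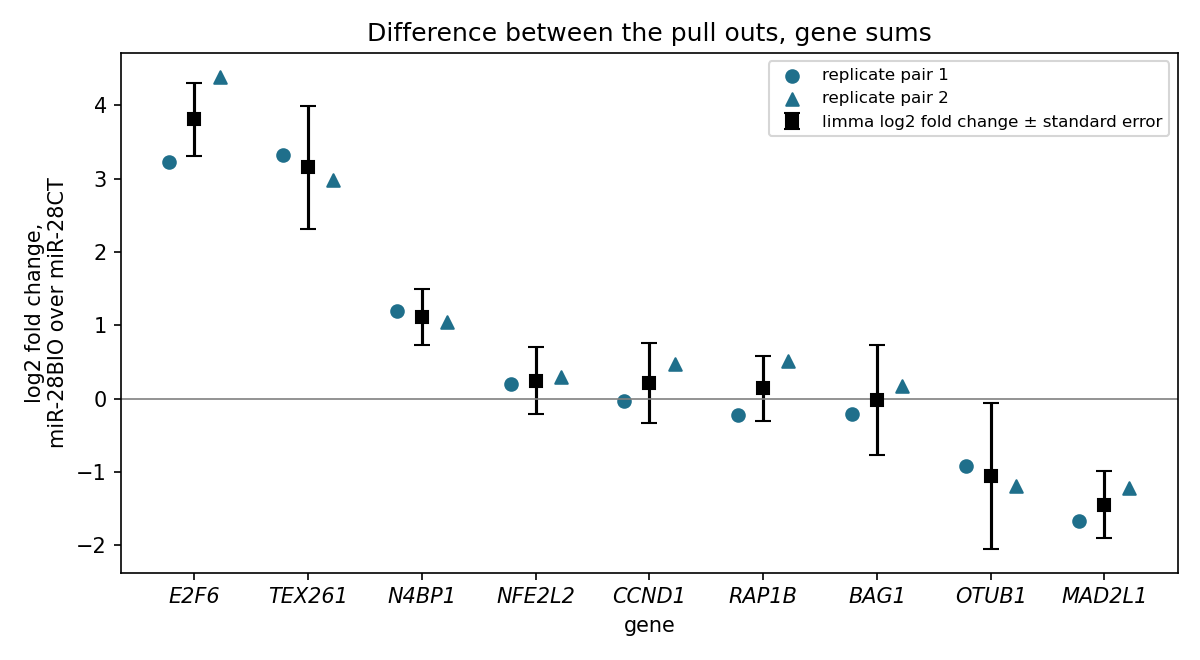
Log2 fold change of each gene sum, miR-28BIO over miR-28CT, from limma (black squares with standard errors) with the values of replicate pair 1 (circles) and replicate pair 2 (triangles). E2F6, TEX261 and N4BP1 are above 0 and OTUB1 and MAD2L1 below 0 in each pair, while CCND1, RAP1B and BAG1 have opposite signs in the pairs.

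The order of the members changed between the arms. FPKM are given per length, so the scaled gene sums can be set against each other. In the miR-28CT samples OTUB1 had the highest mean (17.9), but its libraries, at 7.19 and 28.7, lay on either side of the means of CCND1 (17.0), MAD2L1 (10.7), NFE2L2 (9.88) and TEX261 (9.37). CCND1 lay above MAD2L1 and NFE2L2 in both libraries, and MAD2L1, NFE2L2 and TEX261 were not apart from each other. N4BP1 (3.33) came next, below all of these and above E2F6 (1.99), BAG1 (1.99) and RAP1B (1.70) in every library. In the miR-28BIO samples TEX261 (79.9) was first, E2F6 (30.2) the second and CCND1 (19.1) the third, each above the next gene in both libraries. NFE2L2 (11.7), OTUB1 (8.15) and N4BP1 (7.34) then overlapped in turn, and MAD2L1 (3.97), BAG1 (2.08) and RAP1B (1.89) formed the lowest group. Among all genes tested, the miR-28CT level of the members reached from percentile 24.0 for RAP1B to 86.1 for OTUB1.

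The records behind the sums differed more between libraries than the sums did. MAD2L1, BAG1, N4BP1, CCND1 and TEX261 have 1 record each. E2F6 has 7, of which 4 were above 0 in some library. Its noncoding variant NR_103490 had 2.09 and 1.23 FPKM in the miR-28CT and 13.9 and 27.7 FPKM in the miR-28BIO samples, that is, 87.5%, 83.3%, 60.3% and 66.3% of the gene in the 4 libraries. The remainder of the E2F6 level in the tagged samples was put on NM_001278276 in replicate 1 (9.16 FPKM, 0 in the other libraries) and on NM_001278277 in replicate 2 (14.1 FPKM, and 0.246 in miR-28CT replicate 2). By itself NR_103490 differed by 3.37 on the log2 scale, with a standard error of 0.58 and an adjusted p of 0.845 (limma over 15587 transcripts).

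RAP1B shows the same division more strongly. Its level was placed on NM_001251921 in miR-28CT replicate 1 (2.03 FPKM), on NM_001010942 (0.949) and NM_015646 (0.314) in miR-28CT replicate 2, on NM_001251917 (0.787) and NM_001251918 (0.920) in miR-28BIO replicate 1, and on NM_001251917 alone (2.35) in miR-28BIO replicate 2. No RAP1B record was above 0 in both arms. Taken by itself, NM_001251917 is listed at 0 in the miR-28CT samples and has a fitted log2 fold change of 3.79, a value that depends on the pseudocount, while the gene sum changed by 0.14.

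In NFE2L2, NM_001145412 had 12.4 and 6.93 FPKM in the miR-28CT and 12.7 and 9.77 FPKM in the miR-28BIO samples and held at least 89.7% of the gene in each library. NM_006164 was listed at 0 in the miR-28CT samples and at 1.32 and 1.12 FPKM in the miR-28BIO samples. OTUB1 rested on NM_017670, with 1.53 FPKM on NR_003089 in miR-28CT replicate 1 only. Of the 23 records, 12 passed the filter, several of them only through the arm in which they are above 0. The counts that follow are therefore given as values, and no direction of the records is read from them. In limma over 15587 transcripts, where 0 were called higher (0%) and 0 lower (0%), 0 of the 12 member records were called, with 2 higher and 1 lower at an unadjusted p under 0.05, where 2.09% and 1.49% of all transcripts stood.

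**Figure D3:**
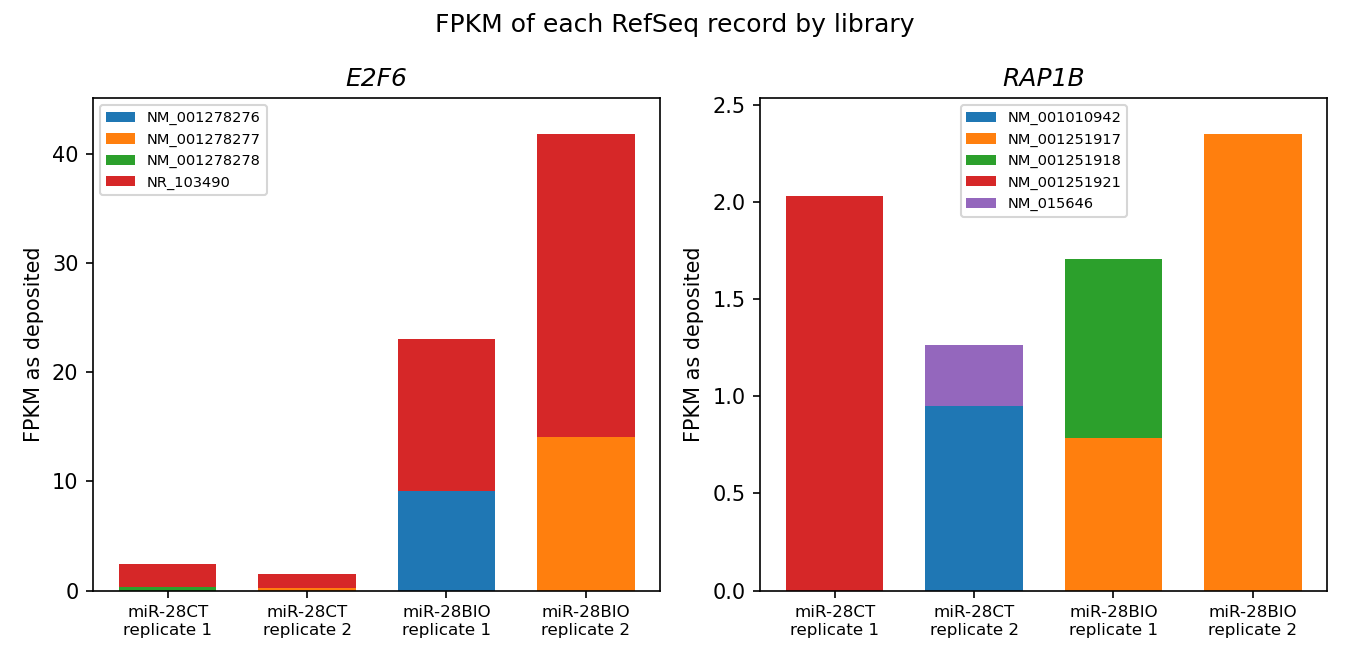
Deposited FPKM of the RefSeq records of E2F6 (left) and RAP1B (right) in each library, stacked to the gene sum on axes that start at 0. NR_103490 is the largest part of E2F6 in all 4 libraries, whereas the RAP1B level sits on records that differ between the arms.

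The seed match itself did not order the members, since genes with a 3′UTR match lay at both ends of the range, from E2F6 at 3.81 to MAD2L1 at -1.44. BAG1, with 3 matches, had a log2 fold change of -0.02. The letters before the match varied along with the change in these genes. E2F6, TEX261 and N4BP1, whose best site shares 7 or 8 of the 9 bases with miR-28-3p, were the members with both tagged samples above both untagged samples. OTUB1, which shares 6, was lower in each pair and is the exception to such an order, and the remaining members share 4 or fewer. The comparison of these bases was chosen after the values had been seen, so it is given without a test. Whether the order follows from pairing of these bases with the tagged miRNA itself was not tested.

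The same count was made for all genes with a 3′UTR. Of 8773 tested genes without a 3′UTR match, 10.8% had both tagged samples above both untagged samples, and their median log2 fold change was -0.13. In 1562 genes with a match and fewer than 6 shared bases the share was 20.1% and the median 0.13. In 32 genes with 6 shared bases it was 37.5% with a median of 0.48. In 18 genes with at least 7 shared bases it was 72.2% with a median of 1.26, and without the 3 members 10 of 15 genes (66.7%) with a median of 0.87. In the replicate pairs the median of these 15 genes was 0.84 and 1.14. Several of the 15, among them LYPD3, ERO1A and DRAM1, are in the targetome selected on these libraries. The groups were not matched for 3′UTR length, with which the share of genes that hold a match rises. Whether the sites lie in annotated repeats was not analysed here.

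**Figure D4:**
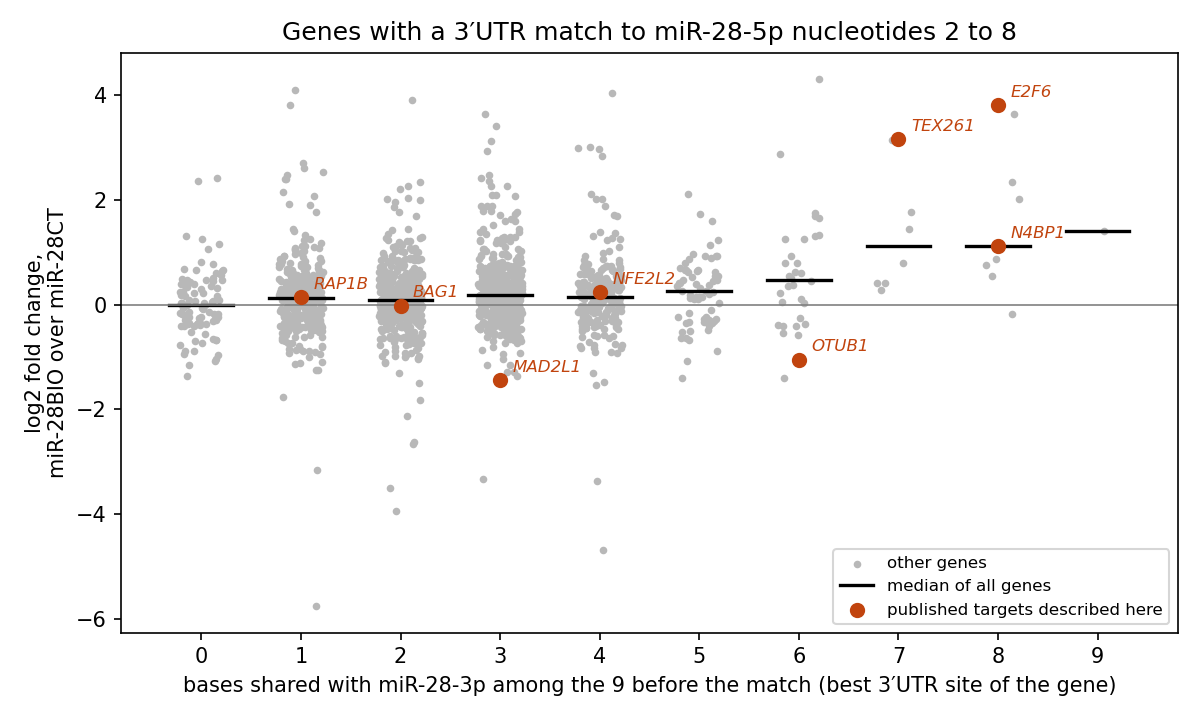
Log2 fold change of the gene sum against the number of bases shared with miR-28-3p among the 9 before the best 3′UTR match, for all tested genes with a match (grey, spread sideways for legibility), with the median at each number (black) and 8 members in red. E2F6 and N4BP1 at 8 and TEX261 at 7 lie above 0, OTUB1 at 6 lies below it, and the median of genes with at least 7 shared bases is 1.26.

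Partners of the members in their pathways were described from lists drawn up by role, and limma called 0 genes in each of them with or without the block. Beside E2F6, 14 of 15 listed E2F family genes and E2F6 partners were tested, with a median log2 fold change of 0.12, and 3 had arms apart upwards and 1 downwards, where 12.3% and 12.7% of all genes did. E2F8, an atypical repressor of the family, had the highest value (1.46) and TFDP1, the dimer partner of E2F1, the lowest (-0.70). Beside TEX261, 10 of 10 genes of the COPII coat and its GTPases gave a median of 0.06, with 3 upwards and 0 downwards (12.3% and 12.7% of all genes), from SEC24B (1.21) to SEC13 (-0.93). The 7 tested ubiquitin partners of OTUB1 and N4BP1 had a median of -0.20, with UBE2N, the conjugating enzyme that OTUB1 binds, at 0.97 and NEDD4 at -0.56.

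For MAD2L1, 8 of 8 spindle checkpoint genes had a median of 0.00 with 0 apart upwards and 0 downwards (12.3% and 12.7% of all genes), and the range ran from MAD2L1BP (1.21) to MAD2L2 (-0.87). The number apart upwards was 1 with FPKM as deposited (15.5% of all genes) and 1 with the interval midpoints (16.5%), and 1 to 3 when a library was left out (25.6% to 33.2%). Genes of the cyclin D pathway beside CCND1 (6 tested) had a median of -0.06, which turned to 0.11 with FPKM as deposited and to 0.016 with upper quartile scaling, with the inhibitor CDKN1A at 0.89 and the kinase CDK4 at -1.05. The NRF2 pathway (15 of 15) had a median of -0.21, with GCLM, a subunit of the enzyme of glutathione synthesis, at 1.19 and the NRF2 target NQO1 at -0.63. BAG family genes and partners (6 tested) had a median of -0.31, between BAG4 (1.77) and the chaperone HSPA8 (-1.14). RAP GTPases and their regulators (10 of 10) had a median of 0.25, between SIPA1L1 (1.69), which stimulates GTP hydrolysis by RAP, and RAP1GDS1 (-0.73). No direction is read from these medians, since several changed sign when a library was left out. Without miR-28CT replicate 2 the median was -0.17 for the RAP list, 0.09 for the BAG list and -0.10 for the spindle checkpoint list. Without miR-28BIO replicate 2 it was 0.12 for the ubiquitin list and 0.10 for the NRF2 list, and without miR-28CT replicate 1 it was 0.17 for the ubiquitin list. Without miR-28BIO replicate 1 it was -0.08 for the RAP list, -0.12 for the spindle checkpoint list and -0.58 for the ubiquitin list.

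Among further published targets, TPI1, an enzyme of glycolysis, had 46.2 and 150.8 FPKM in the miR-28CT and 23.1 and 91.1 FPKM in the miR-28BIO samples, with overlapping arms. Most of this level lay on records without status OK in all libraries, so no fitted value is given. The host gene LPP had a log2 fold change of 0.17. HOXB3, IL34 and IGF1 did not reach the filter. The qRT-PCR reference genes of the study were at -0.85 (GAPDH), -0.55 (ACTB) and 0.35 (HPRT1), with overlapping arms.

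The markers of the line were checked in the same way. KRT8, KRT18, EPCAM, CDH1 and VIM were detected in all libraries, with CDH1 lowest at 0.907 to 1.77 FPKM, and KLK3, which encodes prostate-specific antigen, was listed at 0. PTPRC and PECAM1 were listed at 0, and COL1A1 and ALB stayed at or below 0.178 FPKM. Of the 5 epithelial and mesenchymal markers, 3 (KRT8, EPCAM and VIM) had both tagged samples below both untagged samples in scaled FPKM, where 12.7% of all genes did. The median log2 fold change of the 5 was -0.66, and CDH1, at 0.17, was higher in each pair. The means of MAD2L1 and OTUB1 lay on the same side of 0 as all of these markers but CDH1, and the part of the markers in the values of the members was not tested.

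By pattern over the 4 libraries (Euclidean distance between log2 values centred on the gene mean, among genes within 2-fold of the mean level), E2F6 was nearest to PON3, a member of the paraoxonase family, at a distance of 0.429. N4BP1 was nearest to SERPINB9, an inhibitor of granzyme B, at 0.0821. MAD2L1 was nearest to RPL26L1 (0.200) and OTUB1 to AKR7A2 (0.0923). The distances of RAP1B, BAG1, NFE2L2 and CCND1 ran from 0.0434 for NFE2L2 and SMAD5 to 0.0765 for CCND1 and PEG10.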

How the data were processed

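RNA recovered by the pull out was sequenced in 2 miR-28CT and 2 miR-28BIO libraries, grouped by their labels (the design text counts a further untagged pull out, not analysed here). The authors checked reads with FastQC 0.10.1, aligned them to hg38 with TopHat2 2.0.9 and deposited FPKM of RefSeq records from Cufflinks 2.1.1, with a status and interval bounds. Cutadapt and Cuffdiff are also named in the submitters' notes. Mean coverage, as deposited, served to estimate reads. Reads of one locus are divided among records by Cufflinks, which is why sums per gene were the main measure. Counts were not given, and no counting interval was calculated.

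Symbols came from the RefSeq table of GRCh38 (95.4% of 53209 records). The 52530 records with status OK in all libraries were scaled by median-of-ratios factors (1.06, 0.850, 1.06 and 1.09), summed per symbol, filtered at a mean of 0.5, and tested as log2(scaled FPKM + 0.1) in limma 3.58.1 (R 4.3.3, lmFit, eBayes with a trend, Benjamini-Hochberg adjustment over all features, threshold 0.05). Libraries with the same number were treated as pairs from their labels and from the methods, which describe 2 biological replicates with 2 samples of each kind, and their deviations from the arm means correlated (r = 0.422 over 15587 transcripts). The methods use no block, so the block was an alternative, beside other pseudocounts, filters, scalings, statuses, no trend and leaving out each library. All 9 genes and their records are named, and of each pathway list the genes with the highest and the lowest fold change. Members, lists and tests were chosen with earlier results of these data known. The fits were tested on simulated data. Sites were read from hg38 with GENCODE 44, and Python 3.11.15 and pandas 2.3.3 were used. With 2 libraries per arm, p-values measure the spread between these samples. Some genes of the lists are not reported here, although counts and medians include them.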

Additional observations from a re-analysis of the deposited data

How the results depend on the processing

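E2F6, TEX261, N4BP1 and NFE2L2 stayed above 0 and MAD2L1 and OTUB1 below 0 in the gene sums under all alternatives tried, which included the Cufflinks interval midpoints, chosen after seeing the data. With the replicate block, 1 member (TEX261) was called over gene sums in place of 0, while 0 member records were called over transcripts (TEX261 adjusted p = 0.347, limma), and the other members had adjusted p of 0.0566 to 0.971 (limma). The block also gave 42 genes higher in place of 0 and 22 lower in place of 3. The count of lower genes was 0 with a pseudocount of 1, without the filter, without the trend, with the interval midpoints and with each library left out (0 to 0). The number of members with arms apart upwards was 3 to 6 when a library was left out, 6 without miR-28CT replicate 1 (33.2% of all genes in that setting) and 5 without miR-28BIO replicate 1 (25.6%). BAG1, whose single record is also its gene sum, turned from -0.02 to 0.0059 with a pseudocount of 1, 0.15 as deposited, 0.053 with upper quartile scaling and 0.027 with midpoints, and ran from -0.73 to 0.71 with a library left out. In the same fits CCND1 ran from -0.22 to 0.70, RAP1B from -0.049 to 0.35, NFE2L2 NM_001145412 from -0.13 to 0.38 and OTUB1 NM_017670 from -2.01 to 0.28. The cause of these reversals was not tested. RAP1B was 3.79 when the record with the highest mean stood for the gene. Leaving out the scaling raised the median of all genes by 0.16 and that of the 9 members along with it. The 3′UTR count of 8 genes was the same for the longest 3′UTR and for nucleotides 2 to 7. The low levels of RAP1B and BAG1, with 35.1 to 191 reads per library, limit what can be seen there.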

Other observations

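The 15 further genes whose best 3′UTR site shares at least 7 of 9 bases with miR-28-3p before the match were picked after the values had been seen and are given as values without a test. LYPD3, a surface protein of the LY6 family, had the highest log2 fold change among them (3.64), with a mean scaled FPKM of 1.48 in the miR-28CT and 19.3 in the miR-28BIO samples. ERO1A, an oxidase of protein folding in the endoplasmic reticulum, was at 2.33 (15.4 against 76.5 scaled FPKM), and DRAM1, a lysosomal regulator of autophagy, at 2.01. LYPD3, ERO1A and DRAM1 are in the targetome selected on these libraries. URGCP (1.77), DCAF10 (1.45) and TP53BP1 (1.40), a protein of DNA double strand break repair, are not in that list, and their arms did not overlap. The site of TP53BP1 shares all 9 bases. At the other end KPNA4 (0.54), CCDC6 (0.27) and ZKSCAN8 (0.41) had overlapping arms, and GTF3C4 (-0.17) was the one gene of the 15 below 0, although its site shares 8 bases. The median of the 15 genes lay between 0.80 and 1.05 with each library left out.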
